A study of Homo sapiens with 6 samples.

Results

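The interferon regulatory factors other than IRF4 that were examined are the 7 genes IRF1, IRF2, IRF3, IRF5, IRF7, IRF8 and IRF9. They were taken by symbol, and all transcripts paired with a member's gene ID were summed, which gave 7 of the 63677 gene IDs of the series. The series sequenced total RNA of KMS27, an established human myeloma cell line of malignant plasma cells, after depletion of ribosomal RNA. It holds 3 libraries of cells that overexpress HA-TAZ and 3 libraries of wild type cells. TAZ is the product of WWTR1, a coactivator at the end of the Hippo pathway that reaches DNA through TEAD factors, and HA is a short peptide tag. The promoter that drives HA-TAZ, and whether the cells are 1 clone or a pool, are not given in the sources used here. Wild type titles include HA, and the remaining columns of the table are named scr, which no label explains, so these libraries are named control a to c here. The labels do not say whether the libraries of a group came from separate cultures, so the p-values measure the spread between these libraries, which may be technical.

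Interferon regulatory factors share a DNA-binding domain that recognises GAAA repeats in interferon-stimulated response elements. IRF3 and IRF7 are activated by kinases downstream of nucleic acid sensors and switch on type I interferon genes, and IRF9 joins STAT proteins in ISGF3, the factor that answers type I interferon. IRF1 is itself induced by interferon gamma and drives antigen presentation genes, and IRF2 binds the same elements and often opposes it. IRF5 acts downstream of Toll-like receptors, and IRF8 directs myeloid and B cell differentiation. In myeloma the family is best known for IRF4, on which plasma cells depend.

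IRF1 and IRF9 rose in the HA-TAZ libraries, and no member was called lower. IRF1 was 2.08-fold higher and IRF9 was 1.95-fold higher in scaled TPM. TPM is an abundance per transcript length and per library, and scaled TPM is TPM divided by a median-of-ratios factor of its library. Differences are given as log2 fold changes of scaled TPM + 1, HA-TAZ over control, tested with limma. A gene was called where the Benjamini-Hochberg adjusted p over all 22651 tested genes was under 0.05. All 7 members passed the filter of a mean TPM of at least 1. Of these, 2 were called higher, 0 were called lower and 5 were not called, where 4.67% of all tested genes were called higher, 2.63% lower and 7.29% in either direction. IRF1, IRF7, IRF8 and IRF9, 4 of 7 members, were higher in every HA-TAZ library than in every control library in scaled TPM, as were 20.2% of the tested genes. In TPM as deposited, IRF1, IRF7 and IRF9 were higher without overlap and IRF3 was lower without overlap. The share of all tested genes without overlap was not computed on that scale, where their median log2 fold change was -0.27.

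The regulatory sequence just upstream of the genes that changed is shown because elements of STAT, IRF, NF-kB and TEAD factors can be looked for in it. RefSeq windows of the 250 bases before an annotated start (GRCh38.p14) were matched for 4 members, IRF1, IRF5, IRF8 and IRF9, in 8 windows. IRF2, IRF3 and IRF7 were not matched. Capitals mark matches to the GAS element bound by STAT dimers (TTCNNNGAA), to the NF-kB element and to the TEAD element. The NF-kB element was searched as GGG, A or G, any 2 bases, C or T in each of the next 2, and CC. The TEAD element is CATTCC, which reads GGAATG on the other strand. Both strands were searched, and the ISRE core (GAAA, any 2 bases, GAAA) was searched as well. The window of IRF1 is at chr5:132490774-132491023 on the minus strand, and that of IRF9 is at chr14:24161015-24161264 on the plus strand, each written 5′ to 3′ along the gene.

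IRF1 upstream window: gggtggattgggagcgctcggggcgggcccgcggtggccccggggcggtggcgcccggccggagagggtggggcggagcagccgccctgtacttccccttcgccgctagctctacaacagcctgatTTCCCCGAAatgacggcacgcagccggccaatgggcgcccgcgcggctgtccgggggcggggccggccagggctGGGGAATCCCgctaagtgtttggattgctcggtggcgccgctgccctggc

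IRF9 upstream window: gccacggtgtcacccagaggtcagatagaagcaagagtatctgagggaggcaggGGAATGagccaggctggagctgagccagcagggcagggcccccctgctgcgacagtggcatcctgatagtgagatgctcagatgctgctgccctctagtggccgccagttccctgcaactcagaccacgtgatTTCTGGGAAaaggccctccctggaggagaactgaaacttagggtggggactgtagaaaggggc

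The IRF1 window held a GAS match from 124 to 116 bases before the start and an NF-kB match from 50 to 41 bases before it, which is read on both strands. The IRF9 window held a GAS match from 63 to 55 bases before the start and a TEAD match from 196 to 191 bases before it. None of these overlapped a match to another element. Among 35116 windows of this length, 6.57% held the GAS letters, 9.96% the NF-kB element, 11.9% the TEAD letters and 3.02% the ISRE core. One of the IRF5 windows held a TEAD match, and the IRF8 windows held none of the 4 elements. No ISRE core match was found in any of the 8 windows. A match is a stretch of letters in a reference window, and binding there was not measured.

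IRF1 (ENSG00000125347), the interferon gamma-induced activator, had the largest difference of the 7. Its level was 42.8, 42.9 and 43.3 TPM in HA-TAZ 1 to 3 and 26.7, 25.2 and 24.8 TPM in control a to c. Every HA-TAZ library was above every control library, and the 3 HA-TAZ libraries were nearly level. IRF1 averaged 43.0 ± 0.244 TPM in HA-TAZ against 25.6 ± 0.973 TPM in the controls (SD, n = 3). In scaled TPM the averages were 47.5 ± 2.70 and 22.9 ± 0.744 (SD, n = 3). The log2 fold change was 1.02 (SE 0.06, 95% interval 0.88 to 1.16, limma with Benjamini-Hochberg adjusted p = 0.00243). Without the scaling it was 0.73 (adjusted p = 0.00902), where the median of all tested genes was -0.27 instead of -0.03.

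IRF2 (ENSG00000168310), which competes with IRF1 for the same elements, did not pass the test. IRF2 was at 22.4, 27.2 and 24.3 TPM in HA-TAZ 1 to 3 and at 31.4, 28.5 and 25.4 TPM in control a to c. The groups overlapped, and control a was the highest of the 6. Its log2 fold change was 0.09 (SE 0.06, 95% interval -0.05 to 0.23, limma, Benjamini-Hochberg adjusted p = 0.327) and turned to -0.20 in TPM as deposited. The balance of activator and competitor was compared within each library, where the scaling factor cancels. The TPM ratio of IRF1 to IRF2 was 1.91, 1.58 and 1.78 in HA-TAZ 1 to 3 and 0.849, 0.883 and 0.979 in control a to c. IRF1 was above IRF2 in all 3 HA-TAZ libraries and below it in all 3 control libraries. The log2 difference of the ratio was 0.96, with p = 0.1 in an exact two-sided permutation test, the smallest value that 3 against 3 libraries allow, and 0.1 after Benjamini-Hochberg adjustment over 2 ratios.

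IRF3 (ENSG00000126456) is the constitutively made factor that sensors of viral nucleic acid activate. Its TPM, coding and other transcripts together, was the highest of the 7 in both groups. IRF3 was at 49.4, 45.8 and 46.1 TPM in HA-TAZ 1 to 3 and at 54.0, 56.7 and 51.1 TPM in control a to c. All control libraries were higher in TPM as deposited, and the groups overlapped once scaled. It had a log2 fold change of 0.10 (SE 0.09, 95% interval -0.12 to 0.32, limma, Benjamini-Hochberg adjusted p = 0.466), which turned to -0.19 in TPM as deposited (adjusted p = 0.0861).

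IRF7 (ENSG00000185507), the interferon-inducible partner of IRF3 that amplifies interferon production, was higher in all HA-TAZ libraries but missed the threshold. IRF7 was at 9.33, 9.09 and 9.64 TPM in HA-TAZ 1 to 3 and at 5.92, 6.68 and 8.26 TPM in control a to c. The groups did not overlap, and control c lay closest to the HA-TAZ libraries. The log2 fold change was 0.66 (SE 0.16, 95% interval 0.27 to 1.04, limma, Benjamini-Hochberg adjusted p = 0.0605), and 0.39 in TPM as deposited (adjusted p = 0.0731). It passed with the filter raised to a mean TPM of 5 (limma adjusted p = 0.0418), where 2240 of 12613 tested genes were called. It also passed when only protein-coding genes were tested (log2 fold change 0.59, limma adjusted p = 0.0178), where 2746 of 11666 were called. In the main fit 1652 of 22651 were called. The TPM ratio of IRF7 to IRF3 was 0.189, 0.199 and 0.209 in HA-TAZ 1 to 3 and 0.110, 0.118 and 0.162 in control a to c. In TPM of all transcripts, IRF7 took a larger part relative to IRF3 in every HA-TAZ library. The log2 difference was 0.64, with p = 0.1 in the exact two-sided permutation test and 0.1 after adjustment over both ratios. With only transcripts of a mean TPM of at least 1, the difference was 0.63 and p in that test was 0.3. Coding transcripts held 33.2% of IRF3 TPM in HA-TAZ and 24.8% in the controls, and a ratio of coding transcripts was not computed.

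IRF5 (ENSG00000128604), which acts below Toll-like receptors, did not pass the test. IRF5 was at 8.68, 7.36 and 7.06 TPM in HA-TAZ 1 to 3 and at 8.12, 8.64 and 8.27 TPM in control a to c. HA-TAZ 1 was the highest library and the other HA-TAZ libraries were the lowest, so the groups overlapped. Its log2 fold change was 0.16 (SE 0.12, 95% interval -0.14 to 0.46, limma, Benjamini-Hochberg adjusted p = 0.410) and turned to -0.11 in TPM as deposited.

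IRF8 (ENSG00000140968), the myeloid and B cell factor, had the lowest TPM of the members in both groups, coding and other transcripts together. IRF8 was at 5.37, 6.81 and 4.69 TPM in HA-TAZ 1 to 3 and at 5.40, 4.23 and 3.10 TPM in control a to c. These values overlapped, with control a at the level of HA-TAZ 1, and in scaled TPM the groups were apart at 6.17 ± 0.884 and 3.76 ± 0.773 (SD, n = 3). The log2 fold change was 0.60 (SE 0.16, 95% interval 0.21 to 0.99, limma, Benjamini-Hochberg adjusted p = 0.0730). Among protein-coding genes alone, where 2746 of 11666 tested genes were called, it was 0.54 (limma adjusted p = 0.0257). It dropped to 0.35 in TPM as deposited (limma adjusted p = 0.230) and to 0.34 with coding transcripts only (adjusted p = 0.263). Summed TPM of 7 myeloid markers was 11.4 to 15.4 in the HA-TAZ libraries and 17.5 to 27.8 in the controls. CD163, a scavenger receptor, made up most of that sum, and 4 of the 7 markers, CD14, LYZ, FCGR3A and MPO, were under 1 TPM in every library. CSF1R, a growth factor receptor, had a log2 fold change of 0.07 (-0.12 in TPM as deposited). The integrin ITGAM was higher in every HA-TAZ library in scaled TPM, at deposited values of 0.803 to 1.63 TPM in HA-TAZ and 0.478 to 0.808 TPM in the controls. The part of these genes in the IRF8 values was not tested. In bulk RNA, a change in how many cells express a gene and a change in the amount per cell cannot be told apart.

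IRF9 (ENSG00000213928), the DNA-binding subunit of ISGF3, rose. IRF9 was at 17.8, 19.8 and 17.3 TPM in HA-TAZ 1 to 3 and at 13.4, 9.50 and 11.9 TPM in control a to c. All HA-TAZ libraries were above all control libraries. IRF9 averaged 18.3 ± 1.34 TPM against 11.6 ± 1.94 TPM (SD, n = 3), or 20.2 ± 0.649 and 10.3 ± 1.40 in scaled TPM. The log2 fold change was 0.91 (SE 0.10, 95% interval 0.66 to 1.16, limma, Benjamini-Hochberg adjusted p = 0.0138), and 0.63 in TPM as deposited (adjusted p = 0.0375). Leaving out any one of the HA-TAZ libraries kept the size but ended the call, with adjusted p of 0.0697, 0.0667 and 0.0545 without HA-TAZ 1, 2 and 3. IRF1 was called without any one of the 6 libraries, with log2 fold changes from 0.99 to 1.07 and adjusted p from 0.0112 to 0.0247.

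**Figure D1:**
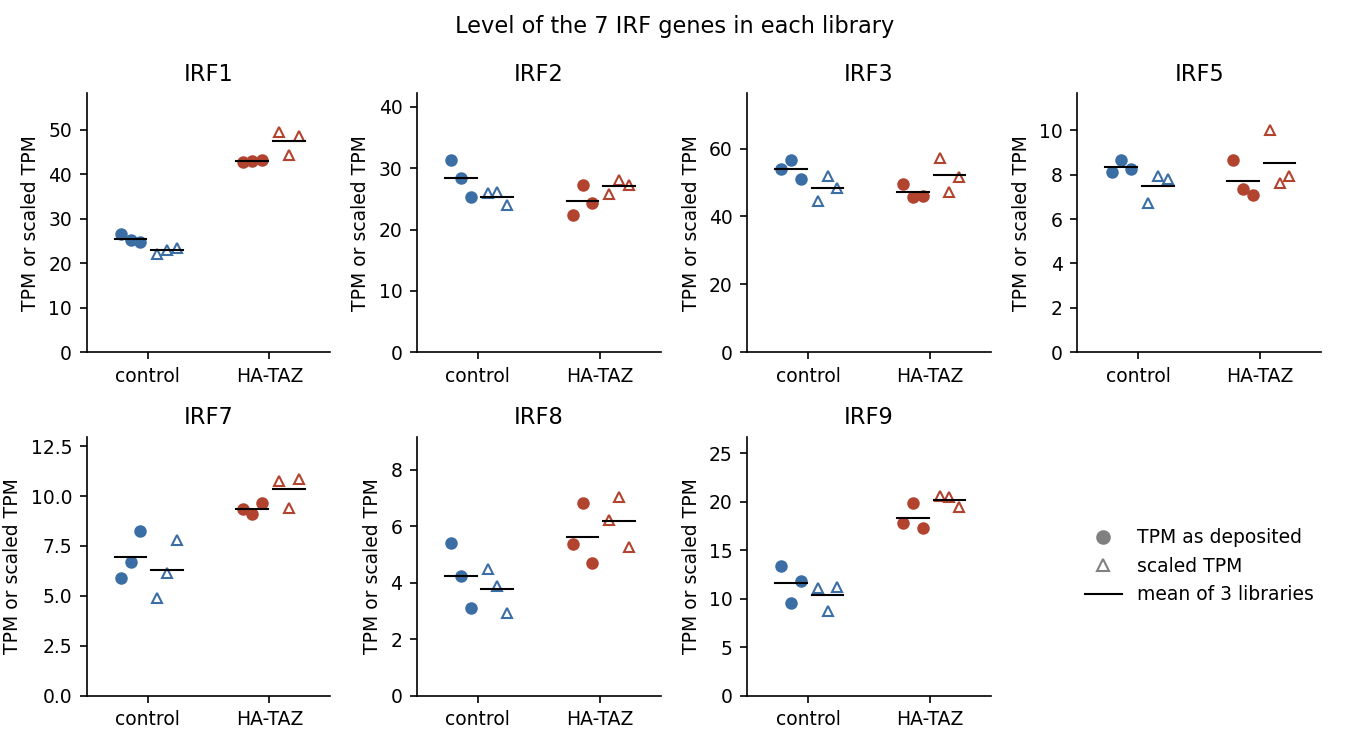
Level of each of the 7 genes in the 6 libraries, with TPM as deposited as circles, scaled TPM as triangles and the mean of 3 libraries as a line; each axis starts at 0. IRF1 and IRF9 are apart on both scales, and the means of IRF2, IRF3 and IRF5 are lower in HA-TAZ as circles and higher as triangles.

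The order of the 7 genes by TPM, which is corrected for length, differed between the groups. In the controls it ran IRF3, IRF2, IRF1, IRF9, IRF5, IRF7 and IRF8, where IRF2 overlapped IRF1 and IRF5 overlapped IRF7, and all other neighbours were apart. In HA-TAZ it ran IRF3, IRF1, IRF2, IRF9, IRF7, IRF5 and IRF8, with all neighbours apart in their 3 libraries. These orders count all transcripts, and coding transcripts alone were ordered otherwise. Coding TPM of IRF3 averaged 15.6 in HA-TAZ and 13.4 in the controls, below IRF1 (33.7 and 19.6) and IRF2 (20.0 and 23.7). IRF9 had the lowest mean coding TPM of the 7 in both groups, at 3.77 and 0.881. In HA-TAZ its libraries (2.71 to 4.68) overlapped those of IRF7 (3.61 to 4.61) and IRF8 (3.02 to 6.43). The 7 genes summed to 156 ± 3.36 TPM in HA-TAZ and 139 ± 6.03 TPM in the controls (SD, n = 3). IRF1 took 27.6% ± 0.721 of that sum in HA-TAZ and 18.4% ± 0.333 in the controls (SD, n = 3). IRF9 took 11.8% ± 0.624 and 8.32% ± 1.31, and IRF3 took 30.3% ± 1.47 and 38.8% ± 1.73 (SD, n = 3). IRF2 took 15.8% ± 1.37 in HA-TAZ and 20.4% ± 1.29 in the controls. A larger share of 1 member lowers the others' by construction, so these shares describe the mixture of RNA and not separate changes. They count transcripts that are not coding as well. Coding transcripts held 20.5% of IRF9 TPM in HA-TAZ and 7.55% in the controls, and 33.2% and 24.8% of IRF3 TPM.

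IRF4, the plasma cell factor, stood above all of them, with 173 ± 16.9 TPM in HA-TAZ against 234 ± 34.6 TPM in the controls (SD, n = 3). Its log2 fold change of -0.13 did not pass the test (limma, adjusted p = 0.334), and its groups overlapped in scaled TPM. In TPM as deposited it was lower in every HA-TAZ library and was not called (-0.43, adjusted p = 0.0655). Transcript means in the authors' deposited table correspond to estimated counts of 3780 for IRF1, 2649 for IRF2, 1950 for IRF3, 724 for IRF5, 577 for IRF9, 477 for IRF7 and 345 for IRF8. Such counts carry a counting error of 1.63% for IRF1 and 5.38% for IRF8 in a library.

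**Figure D2:**
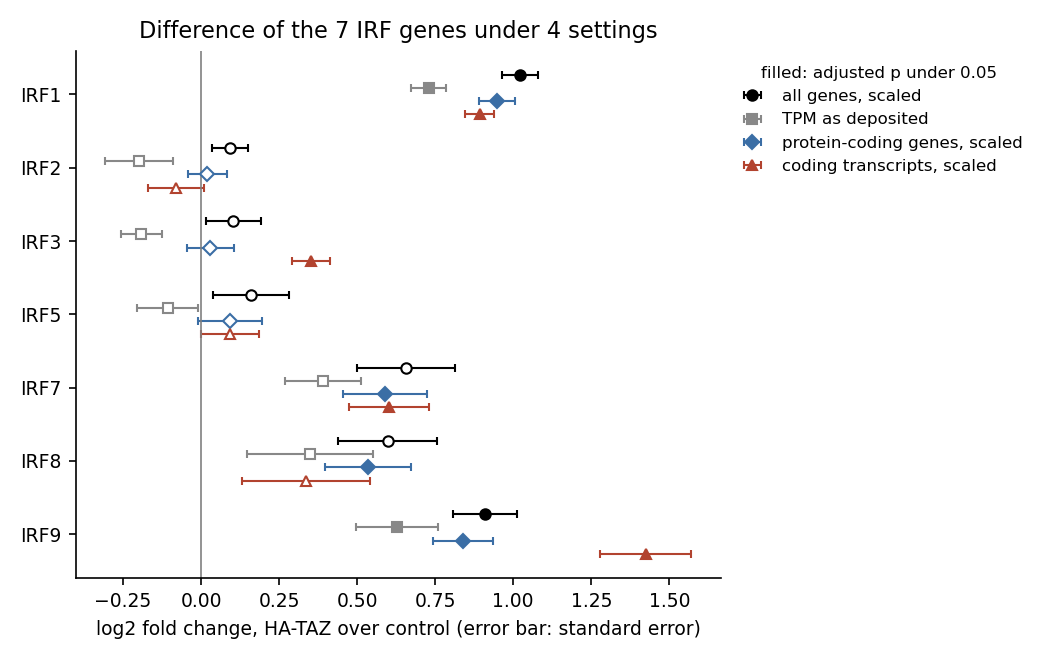
Log2 fold change of each gene, HA-TAZ over control, with its standard error (n = 3 libraries a group), in 4 settings; a filled symbol has an adjusted p under 0.05. IRF1 and IRF9 are filled in all 4, while IRF2, IRF3 and IRF5 lie above 0 with all genes scaled (0.09, 0.10 and 0.16) and below 0 in TPM as deposited (-0.20, -0.19 and -0.11).

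Across the series, WWTR1 ranged from 293 to 306 TPM in HA-TAZ against 1.69 to 2.69 TPM in the controls, as labelled. With the scaling, 64.0% of 1652 called genes were higher in HA-TAZ, and without it 7.84% of 3329 were. Among protein-coding genes alone the share was 51.9% of 2746. Of 10 plasma cell markers, 1 was called higher (SLAMF7, a surface receptor, log2 fold change 0.95) and 1 lower (CD38, an ectoenzyme, -0.61), with a median of -0.03. In TPM as deposited 1 was called higher and 5 lower, with a median of -0.33. Of all 22651 tested genes, 3329 were called in that setting, 7.84% of these higher, and the median was -0.27. Summed TPM of the plasma cell markers was 2825 to 3262 in HA-TAZ and 4308 to 4877 in the controls. Most of it came from the immunoglobulin joining chain gene IGJ (-0.33, limma adjusted p = 0.0654). POU2AF1, a B cell coactivator, was at 0.25 and turned to -0.04 in TPM as deposited. Myeloid, T cell, stromal and epithelial markers had 2 of 7, 1 of 5, 1 of 5 and 1 of 4 genes above the filter, none of them called. Summed TPM was 1.34 to 1.47 against 2.25 to 2.56 for the T cell list and 1.95 to 2.21 against 1.25 to 2.79 for the stromal list. It was 1.04 to 1.15 against 1.46 to 1.70 for the epithelial list, HA-TAZ libraries first.

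Transcripts showed which forms of each gene carried its level. The 7 genes had 106 transcripts, of which 62 are coding, and 36 had a mean TPM of at least 1. Of these, 3 were called higher and 0 lower (limma, Benjamini-Hochberg adjusted p under 0.05 over 57448 transcripts), and all 3 are coding transcripts of IRF1. Of all tested transcripts, 0.456% were called higher. The authors' deposited table gave statistics for 74 of the 106, and 12 of them reached a q-value under 0.05, each in the positive direction. Over all transcripts with statistics in the authors' deposited table, 4.08% reached a q-value under 0.05 in that direction. The 12 were 5 of IRF1, 4 of IRF9 and 1 each of IRF3, IRF7 and IRF8 in the authors' deposited table. Both analyses use the same 6 libraries and are not independent of each other.

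The leading IRF1 transcript, ENST00000437654.1, was at 11.9, 15.6 and 12.5 TPM in HA-TAZ 1 to 3 and at 8.35, 6.48 and 6.42 TPM in control a to c. ENST00000405885.2, also coding, went furthest, from 3.51 ± 0.360 to 8.36 ± 0.568 TPM (SD, n = 3), a log2 fold change of 1.30 (SE 0.13, limma adjusted p = 0.0263). ENST00000245414.4 was at 7.84 ± 0.159 against 5.93 ± 0.234 TPM (log2 fold change 0.61, SE 0.08, limma adjusted p = 0.0431). All 3 were higher in every HA-TAZ library. The retained-intron transcripts ENST00000493208.1 and ENST00000472045.1 had log2 fold changes of 0.69 and 0.54 and were not called (limma adjusted p = 0.0892 and 0.0741). Their q-values were 0.000659 and 3.11e-08 in the authors' deposited table. Coding transcripts took 78.3% ± 4.22 of IRF1 TPM in HA-TAZ and 76.9% ± 1.87 in the controls (SD, n = 3), so the mixture of coding and other forms overlapped between the groups.

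The make-up of IRF9 TPM differed between the groups as well, though the shares were not tested. Transcripts annotated with a retained intron held 75.8% of its TPM in HA-TAZ and 87.0% in the controls. The largest of them, ENST00000560311.1, was at 6.59, 7.95 and 7.43 TPM in HA-TAZ 1 to 3 and at 6.05, 3.15 and 4.42 TPM in control a to c (log2 fold change 0.87, limma adjusted p = 0.0767). ENST00000560542.1 and ENST00000561415.1, of the same kind, had log2 fold changes of 0.61 and 0.45 (limma adjusted p = 0.0794 and 0.0890), with q-values of 0.0116 and 0.00938 in the authors' deposited table. ENST00000561412.1 overlapped between the groups (0.11). Coding transcripts of IRF9 were at 3.94, 4.68 and 2.71 TPM in HA-TAZ 1 to 3 and at 1.18, 0.707 and 0.753 TPM in control a to c. Their share of IRF9 TPM was 20.5% ± 4.20 in HA-TAZ and 7.55% ± 1.26 in the controls (SD, n = 3), with no overlap. Summed over coding transcripts only, a setting chosen after the data were seen, the IRF9 log2 fold change was 1.42 (SE 0.15, limma adjusted p = 0.00158). Much of that difference lay in ENST00000559284.1, at 2.40, 2.13 and 1.11 TPM in HA-TAZ 1 to 3, at 0.253 TPM in control a, near 0 in control b and listed at 0 in control c. The mean TPM of this transcript was under the filter, and its q-value in the authors' deposited table was 0.00226. Its natural log mean there was 2.03, against 5.12 for ENST00000560311.1, so few estimated counts lie behind it. The coding transcript ENST00000396864.3, named after its values were seen, held 7.82% of IRF9 TPM in HA-TAZ and 5.64% in the controls. It had a log2 fold change of 0.70 (limma adjusted p = 0.0729), with q = 0.0974 in the authors' deposited table.

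IRF3 held most of its TPM in forms not annotated as coding in GENCODE release 29. ENST00000602190.1, a processed transcript, took 40.7% of IRF3 TPM in HA-TAZ and 45.2% in the controls, at 19.1 ± 2.09 and 24.4 ± 1.56 TPM (SD, n = 3). The main coding transcript, ENST00000377139.3, was at 7.05 ± 0.505 and 5.91 ± 0.769 TPM (log2 fold change 0.48, SE 0.10, limma adjusted p = 0.0837), and the authors' deposited table gives q = 0.0147. TPM is per transcript length, and the order of the 2 forms was the reverse in estimated counts. Their natural log means in the authors' deposited table were 6.41 for ENST00000377139.3 and 5.75 for ENST00000602190.1. The coding share of IRF3 was 33.2% ± 1.28 in HA-TAZ and 24.8% ± 0.480 in the controls (SD, n = 3), and the groups were apart. In the same added setting of coding transcripts only, IRF3 was called higher, where the log2 fold change was 0.35 (SE 0.06, limma adjusted p = 0.0115), while the sum of all its transcripts was not. That setting called 1988 of 10527 tested genes.

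In IRF7, the coding transcript ENST00000397566.1 was at 1.83, 1.52 and 2.33 TPM in HA-TAZ 1 to 3 and at 0.988, 0.739 and 1.14 TPM in control a to c. It was not called (log2 fold change 0.73, SE 0.17, limma adjusted p = 0.0903), though all HA-TAZ libraries were higher, and the authors' deposited table gives q = 0.000636. The other IRF7 transcripts with at least 10% of the gene, ENST00000531912.1, ENST00000527160.1 and ENST00000397570.1, overlapped between the groups. In IRF8, ENST00000268638.5 was at 1.24 ± 0.122 and 0.861 ± 0.123 TPM (SD, n = 3; log2 fold change 0.42, limma adjusted p = 0.127; q-value 0.00412 in the authors' deposited table). ENST00000563180.1 was at 1.08 against 0.826 TPM, and ENST00000566369.1 was at 0.670 against 0.605 TPM with overlap. ENST00000564617.1 was at 1.91 and 2.16 TPM in HA-TAZ 1 and 2 and near 0 in HA-TAZ 3. In control a to c it was at 1.95, 1.04 and 0.844 TPM, so the groups overlapped (log2 fold change 0.06, limma adjusted p = 0.955). The leading transcripts of IRF2 (ENST00000393593.3, coding, 63.4% and 69.8% of the gene) and IRF5 (ENST00000402030.2, coding, 35.2% and 38.5%) had log2 fold changes of -0.03 and 0.04 (limma adjusted p = 0.887 and 0.860). The nonsense-mediated decay transcript ENST00000509274.1 of IRF2 had 0.26 (limma adjusted p = 0.216). ENST00000464557.1 and ENST00000473787.1 of IRF5 were under the filter and overlapped between the groups.

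**Figure D3:**
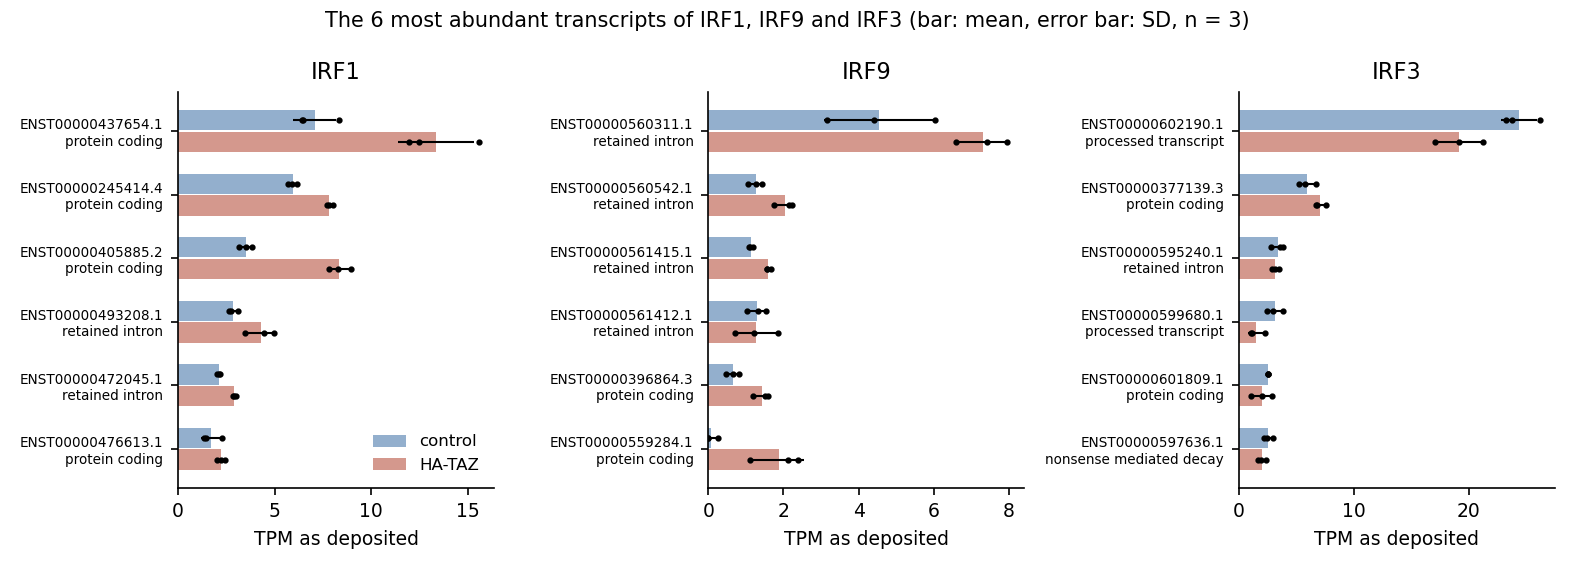
TPM as deposited of the 6 most abundant transcripts of IRF1, IRF9 and IRF3, with bars for the mean, error bars for the SD and points for the 3 libraries of each group. The coding IRF1 transcripts are higher in HA-TAZ, IRF9 is mostly retained-intron transcripts with ENST00000559284.1 near 0 in the controls, and the largest IRF3 form is a processed transcript.

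Some members overlap other genes, and reads shared by both strands could not be told apart, since nothing states that the quantifier used the library's strand. C5orf56, on the strand opposite IRF1, averaged 7.85 ± 0.648 TPM in HA-TAZ against 10.8 ± 0.938 TPM in the controls (SD, n = 3), with a log2 fold change of -0.15 (limma adjusted p = 0.145). BCL2L12, a gene of the BCL2 family opposite IRF3, was at 25.3 ± 0.768 and 20.5 ± 2.65 TPM (0.59, limma adjusted p = 0.0651). AL136295.5, which overlaps IRF9 on the same strand, was at 1.21 and 1.27 TPM (0.13). Inside IRF2 lie SNORD79, at 4.86 and 8.39 TPM, and RP11-326I11.5, at 2.11 and 2.20 TPM, and neither was called.

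The genes whose values across the 6 libraries lay nearest to a called member were found by the distance between centred log2(scaled TPM + 1) values. For IRF1 they were JUN, a subunit of AP-1, with a distance of 0.0986, then gene copies named TAP1 (ENSG00000232367, 0.107) and GRINA (ENSG00000261721, 0.137). JUN averaged 15.9 ± 0.163 TPM in HA-TAZ against 8.92 ± 0.169 TPM in the controls (SD, n = 3; log2 fold change 1.04, limma adjusted p = 0.00610). For IRF9 they were the non-coding RNA AC003092.1 (0.103), a copy of HLA-DPB1 (ENSG00000230708, 0.145) and GPR55, a G protein-coupled receptor (0.187). Reads of genes with several copies are split between them, so the values of the TAP1, GRINA and HLA-DPB1 copies are uncertain.

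The pathway was then read from sensors to targets, in lists chosen with earlier results of these data known. Of 19 sensors, adaptors and kinases upstream of the family, 17 were tested, 3 were called higher and 0 lower. Their median log2 fold change was 0.27, against -0.03 for all tested genes, and 0.01 in TPM as deposited, where 1 was called higher and 1 lower. Beside this list and the next ones, 4.67% of all 22651 tested genes were called higher and 2.63% lower in scaled TPM. In TPM as deposited all tested genes had a median of -0.27. Of these genes 3329 were called in that setting, and 7.84% of the calls were higher. IFIH1, the RNA sensor MDA5, averaged 16.4 ± 1.30 scaled TPM in HA-TAZ against 8.93 ± 0.708 in the controls (SD, n = 3; log2 fold change 0.81, SE 0.09, limma adjusted p = 0.0128). TMEM173, the adaptor STING, was at 0.39 (SE 0.08, adjusted p = 0.0475) and TANK, which binds the IRF3 kinases, at 0.30 (SE 0.05, adjusted p = 0.0331). TANK and TMEM173 overlapped between the groups in TPM as deposited. IRAK1, a kinase of Toll-like receptor signalling, was not called at 0.30 (adjusted p = 0.0592) and lay at 0.00 in TPM as deposited.

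Of 16 interferons, receptors and JAK-STAT genes, 10 were tested, 4 were called higher and 0 lower. The median was 0.26, and it turned to -0.02 in TPM as deposited, where 0 were called higher and 1 lower. STAT2, a partner of IRF9 in ISGF3, was at 26.5 ± 2.00 and 25.7 ± 2.08 TPM (SD, n = 3; log2 fold change 0.33, limma adjusted p = 0.0359; 0.04 in TPM as deposited). IFNGR2, a chain of the interferon gamma receptor, was at 0.50 (adjusted p = 0.0363), and the kinase TYK2 at 0.35 (adjusted p = 0.0491; 0.05 in TPM as deposited). IFNA1 and IFNA2 were listed at 0 in every library.

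Of 10 partners and corepressors, 8 were tested, 1 was called higher and 0 lower, with a median of 0.20. In TPM as deposited 0 were called higher and 1 lower, and the median turned to -0.09. The gene called was IRF2BPL, related to the IRF2-binding proteins, at 10.9 ± 0.363 and 8.92 ± 0.694 TPM (SD, n = 3; log2 fold change 0.54, limma adjusted p = 0.0462), and it lost the call in TPM as deposited (0.27, adjusted p = 0.0729). BATF, which pairs with IRF4 and IRF8 on composite elements, was at 5.76, 5.47 and 4.64 TPM in HA-TAZ 1 to 3 and 2.87, 3.48 and 4.42 TPM in control a to c (0.70, adjusted p = 0.0680). IKZF3 (0.22) and the IRF2 corepressor IRF2BP2 (0.19) were not called and turned to -0.08 and -0.10 in TPM as deposited.

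The target lists had the largest medians of the 5 lists. Of 14 targets of IRF1, 10 were tested, 7 were called higher and 0 lower, with a median of 0.70 (0.51 in TPM as deposited, where 4 were called higher and 0 lower). CXCL10, a chemokine, was at 37.8, 38.1 and 33.7 TPM in HA-TAZ 1 to 3 and 3.39, 3.16 and 3.42 TPM in control a to c, a log2 fold change of 3.38 (SE 0.08, limma adjusted p = 0.000132). GBP2, an interferon-induced GTPase, had 1.49 (adjusted p = 0.00268), CIITA, the master regulator of MHC class II genes, 0.83 (adjusted p = 0.00920) and TAP1, a peptide transporter, 0.84 (adjusted p = 0.0130). CASP1, a protease that drives inflammation and was named after its values were seen, had the only fold change below 0 among the 10 (-0.30, adjusted p = 0.157) and was called lower among protein-coding genes alone. That setting called 2746 of 11666 tested genes. TAP1 is listed under 8 gene IDs, and its value is uncertain for that reason. Of 20 targets of ISGF3, 16 were tested, 10 were called higher and 0 lower, with a median of 0.62 (0.40 in TPM as deposited, where 7 were called higher and 0 lower). IFIT2, an RNA-binding antiviral protein, was at 6.22, 7.87 and 6.98 TPM in HA-TAZ 1 to 3 and 0.544, 0.603 and 0.350 TPM in control a to c (2.60, SE 0.10, limma adjusted p = 0.00111). IFIT3 had 1.79, IFIT1 1.48 and PARP9, an ADP-ribosyltransferase, 1.41 (limma adjusted p = 0.00215, 0.00480 and 0.00328). XAF1 (-0.19) and MX2 (-0.23), named after their values were seen, had the only fold changes below 0 among the 16 and were not called.

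**Figure D4:**
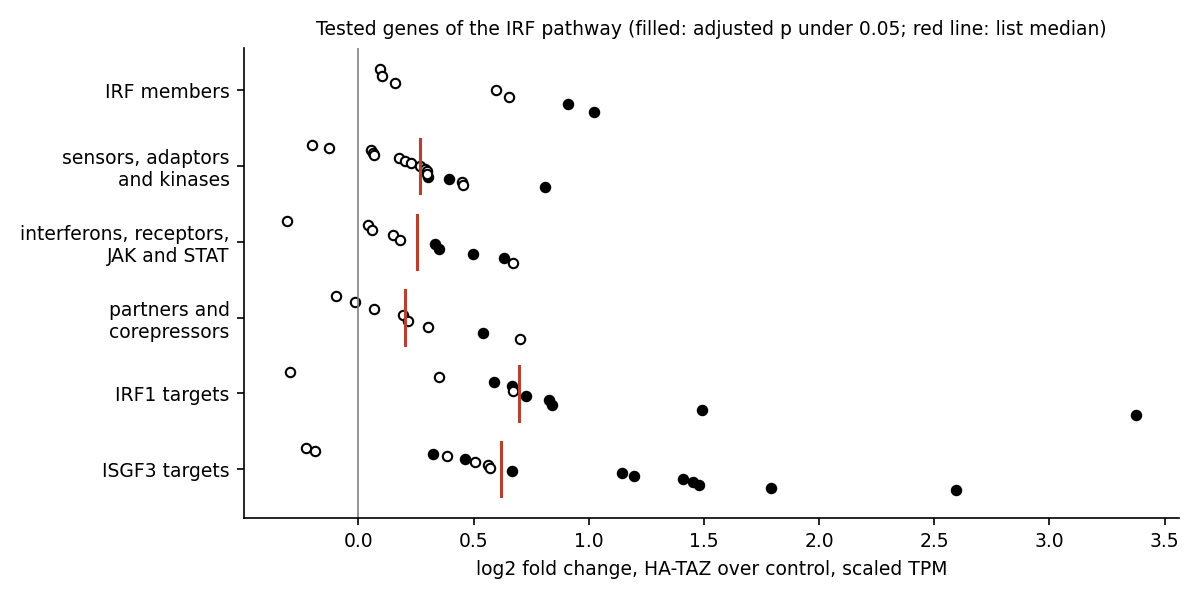
Log2 fold change, HA-TAZ over control in scaled TPM, of the tested genes of the family and of 5 pathway lists; each point is 1 gene, filled where the adjusted p is under 0.05, and the red line is the list's median. The medians are 0.27, 0.26 and 0.20 for the upstream lists, of which the second and the third turn to -0.02 and -0.09 in TPM as deposited, and 0.70 and 0.62 for the target lists.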

How the data were processed

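Total RNA of 3 HA-TAZ and 3 control libraries was compared. The authors deposited TPM per transcript, which sums to 1000000 in each library and so carries no depth. Their other table holds p-values and q-values, a natural log effect and mean, and a standard error of that effect, a score, per the file headers. Kallisto 0.46.0, sleuth 0.30.0 and GRCh37 are named per the submitters' processing notes, and the annotation release is not given in the sources used here. Depth was judged from transcript means of estimated counts in the authors' deposited table, and covers counting error only.

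TPM was summed per gene ID. A median-of-ratios factor over 21512 genes scaled each library (0.866 to 0.967 for HA-TAZ, 1.06 to 1.21 for the controls). Genes reaching a mean TPM of 1 were fitted with limma 3.58.1 in R 4.3.3 on log2(scaled TPM + 1), allowing a trend of the variance with level. Tests were two-sided, and an adjusted p (Benjamini-Hochberg) under 0.05 made a call. This log2 scale understates changes of low genes. The fit was tested on simulated data. Transcripts were fitted alike. Ratios were compared with exact permutation tests. GENCODE release 29 supplied gene and transcript types and overlaps, and RefSeq the upstream windows. The control columns were assigned to wild type by elimination.

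The members and lists were chosen with earlier results of these data known. Named in the text are all members, their transcripts with at least 10% of the gene or a q-value under 0.05, the 4 genes of each list with the smallest p, and the 3 genes nearest to each called member. Some genes that this rule names are not reported here. Alternatives were another pseudocount (0.1), no filter, a mean TPM of at least 5, TPM as deposited, no trend, protein-coding genes only, coding transcripts only (added after seeing the data) and leaving out each library.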

Additional observations from a re-analysis of the deposited data

How the results depend on the processing

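IRF1 kept its direction and its call in all alternatives, and IRF9 in all but the fits without an HA-TAZ library. With TPM as deposited, the log2 fold changes of IRF2, IRF3 and IRF5 turned to -0.20, -0.19 and -0.11, and with coding transcripts only IRF2 turned to -0.080 and IRF3 passed the threshold (0.35, adjusted p = 0.0115). IRF7 passed it with a mean TPM of at least 5 (0.66), among protein-coding genes (0.59) and with coding transcripts (0.60), and IRF8 among protein-coding genes (0.54). These settings called a larger part of all the genes they tested, 2240 of 12613, 2746 of 11666 and 1988 of 10527 in that order, against 1652 of 22651. IRF8 has no value at a mean TPM of at least 5. Leaving out 1 library gave 0.99 to 1.07 for IRF1, 0.05 to 0.13 for IRF2, 0.04 to 0.17 for IRF3, 0.06 to 0.23 for IRF5, 0.51 to 0.80 for IRF7, 0.47 to 0.70 for IRF8 and 0.80 to 0.97 for IRF9. The ratio of IRF7 to IRF3 without low transcripts had p = 0.3 in the exact permutation test. The 1652 called genes became 691 with no filter, 3329 with TPM as deposited, 758 without the trend, 2746 among protein-coding genes and 118 to 470 with 1 library left out. The 324 called transcripts became 116 with no filter, 2009 with the filter raised to a mean TPM of 5, 120 with TPM as deposited, 154 without the trend and 13 to 124 with 1 library left out. The lower counts with 1 library left out come with fewer samples, and for the other changes the cause was not tested. No paired analysis was possible because the control columns carry numbers under a name that is in no label, so which numbered wild type sample each one holds is unknown. Low transcripts are limited by depth, since IRF8 rests on 345 estimated counts over its transcripts.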

Other observations

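Some interferon and target genes lay under the filter of a mean TPM of 1 and are described from the fit with no filter, chosen by name after their values were seen. IFNB1, the type I interferon induced first by IRF3, was at 0.559, 0.510 and 0.445 TPM in HA-TAZ 1 to 3 and at 0.0906, 0.0215 and 0.0325 TPM in control a to c. All HA-TAZ libraries were higher, with a log2 fold change of 0.58 on the log2(scaled TPM + 1) scale (limma, adjusted p = 0.0185), and its transcript mean in the authors' deposited table corresponds to 6.60 estimated counts. IFNL1, a type III interferon, was at 0.657, 0.755 and 0.683 TPM and at 0.118, 0.168 and 0.0633 TPM (0.68, limma adjusted p = 0.0144), on 12.3 estimated counts. IFNA1 and IFNA2 were listed at 0 in all 6 libraries.

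USP18, an inhibitor of the type I interferon receptor that ISGF3 induces, was at 0.410, 0.568 and 0.468 TPM in HA-TAZ 1 to 3 and at 0.0261, 0.0540 and 0.0552 TPM in control a to c (0.55, limma adjusted p = 0.0129). OASL, an antiviral protein, was at 1.43, 1.76 and 1.76 TPM and at 0.418, 0.402 and 0.110 TPM (log2 fold change 1.15, limma adjusted p = 0.0250). The IRF1 target VCAM1 was at 0.155, 0.146 and 0.202 TPM in HA-TAZ 1 to 3 and was listed at 0 in all controls. CXCL9, a chemokine that interferon gamma induces, was at 0.502, 0.939 and 0.444 TPM and at 0.0833, 0.0759 and 0.0324 TPM, with no overlap, and was not called (0.66, limma adjusted p = 0.0616). The ISGF3 targets RSAD2 and OAS3 were also higher without overlap and were not called (0.56 and 0.40, limma adjusted p = 0.0622 and 0.139). The remaining targets under the filter were not higher without overlap. IFI44L, an ISGF3 target, was at 0.273, 0.455 and 0.334 TPM in HA-TAZ 1 to 3 and at 0.646, 0.524 and 0.511 TPM in control a to c, lower without overlap and not called (-0.11, limma adjusted p = 0.413). The IRF1 targets CD274 and IDO1 overlapped between the groups (0.11 and 0.07). Calls in the fit with no filter were not limited to interferon and target genes. LUM, a stromal marker, was called higher (0.29, limma adjusted p = 0.0252). CD3E and EPCAM, a T cell and an epithelial marker, were lower without overlap and not called (-0.27 and -0.08, limma adjusted p = 0.0957 and 0.277).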
